A study of Homo sapiens with 16 samples.

Results

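The genes described here are 32 members of the glycolytic pathway and of the hypoxia response, chosen by symbol from the 27037 genes of the count table. They comprise 4 glucose and lactate transporters, 9 genes of upper glycolysis, 6 of lower glycolysis, 4 that decide the fate of pyruvate, 3 regulators of the hypoxia-inducible factor (HIF) and 6 further HIF targets. RNA was sequenced from SK-N-BE(2)C, a single human neuroblastoma cell line with amplified MYCN, after 5 days of treatment. The 4 groups received the DMSO vehicle, 10 µM all-trans retinoic acid (RA, which drives differentiation of neuroblastoma cells), 1 µM palbociclib (PB, which blocks the kinases CDK4 and CDK6 that drive cells into S phase), or 1 µM PB with 10 µM RA (PB+RA). Each group held 4 biological replicates, and all 16 samples came from the same line in medium with serum. The labels name no hypoxic treatment, and whether the hypoxia response genes stood at their basal level was not tested.

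Glycolysis splits glucose into pyruvate. Glucose enters through the GLUT transporters, is trapped by hexokinase, committed by phosphofructokinase and split by aldolase, and the lower steps from GAPDH to pyruvate kinase yield ATP. Lactate dehydrogenase turns pyruvate into lactate, which leaves through the MCT transporters, whereas the pyruvate dehydrogenase kinases (PDKs) keep pyruvate out of the mitochondria. HIF1A, the oxygen-regulated subunit of HIF-1, is marked for destruction by the prolyl hydroxylases EGLN1 and EGLN3 when oxygen is present. Stabilised HIF-1 binds short motifs with the core ACGTG or GCGTG and raises many glycolytic genes along with VEGFA, CA9, BNIP3, NDRG1, ADM and P4HA1. HIF1A protein is controlled mainly after translation, so its mRNA is no readout of HIF activity.

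The libraries held 19515779 to 31620821 counted reads. Levels are given as CPM, the usual scaling of a gene's reads by the library total, so that 1 CPM rests on about 19.5 reads in the smallest library. The 8 adrenergic neuroblastoma markers were detected in every group. Their summed level was 3857 to 4549 CPM in DMSO and 3570 to 4799 in RA, against 6272 to 7586 in PB and 5181 to 8693 in PB+RA, and 4 of the 8 were called higher and 0 lower in PB against DMSO. The 7 mesenchymal markers found in the table summed to 320 to 470 CPM in DMSO, 825 to 1263 in RA, 268 to 386 in PB and 568 to 929 in PB+RA, with none at 0. The 4 glial markers summed to 14.5 to 19.1 CPM in DMSO, 18.5 to 22.3 in RA, 27.5 to 34.1 in PB and 30.1 to 34.5 in PB+RA. Blood and endothelial markers stayed at or under 0.285 CPM. The mesenchymal sum thus moved with RA and the adrenergic and glial sums with PB, and their part in the results below was not tested. Single markers did not all follow these sums. Of 6 mesenchymal markers tested, 3 were called higher and 0 lower in RA. In PB 0 were higher and 3 lower, and in PB+RA 1 was higher and 2 were lower. Of the 8 adrenergic markers, 2 were higher and 1 lower in RA, and 3 were higher and 0 lower in PB+RA. In bulk RNA, a change in the share of cells of one kind and a change in RNA per cell cannot be told apart. Some of the genes below, such as PFKP and NDRG1, separated replicates 1 and 2 from replicates 3 and 4 in every group, and counts are therefore also given within each of these sets.

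Of the 32 genes, 28 were matched by symbol to the RefSeq promoters of GRCh38.p14, which run from 250 bases before to 50 bases after the transcription start. No entry was held for SLC2A3, SLC16A1, VEGFA and NDRG1. The HIF core motif, as ACGTG or GCGTG on either strand, was present in 20 of the 28 (71.4%), against 62.8% of 11316 tested genes with a promoter and 48.4% of all 35116 promoters in the table. ACGTG alone was present in 46.4% of the 28 and in 26.1% of the tested genes. A palindromic CACGTG counts as an ACGTG on both strands. LDHA and BNIP3 held the most matches with 6 each, followed by ALDOC with 5 and PGK1 with 4. Among the genes lower in PB+RA than in DMSO, 9 of 12 held the motif, or 75%, as did 69.2% of the 13 that were not called and 1 of the 2 that were higher and had a promoter. To show both kinds, the 250 bases before the start are printed for the genes of this set that fell most (P4HA1, a collagen prolyl hydroxylase, and ALDOC, the brain form of aldolase) and rose most (PFKM, the muscle form of phosphofructokinase, and ADM, the vasodilator peptide adrenomedullin) in PB against DMSO. Capitals mark the motif on either strand, and P4HA1 holds 1 match, ALDOC 5, PFKM 0 and ADM 1.
P4HA1, chr10:73096867-73097116, minus strand: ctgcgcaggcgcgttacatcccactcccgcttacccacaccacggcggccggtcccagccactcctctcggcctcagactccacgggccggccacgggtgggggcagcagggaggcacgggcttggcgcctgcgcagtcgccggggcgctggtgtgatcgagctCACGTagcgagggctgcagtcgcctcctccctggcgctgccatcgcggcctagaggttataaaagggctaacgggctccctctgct
ALDOC, chr17:28576896-28577145, minus strand: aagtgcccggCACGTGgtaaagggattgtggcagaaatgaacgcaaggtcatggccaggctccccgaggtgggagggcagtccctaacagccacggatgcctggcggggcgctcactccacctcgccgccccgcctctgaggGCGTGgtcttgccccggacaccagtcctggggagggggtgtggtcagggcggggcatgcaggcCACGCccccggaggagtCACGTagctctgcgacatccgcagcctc
PFKM, chr12:48105623-48105872, plus strand: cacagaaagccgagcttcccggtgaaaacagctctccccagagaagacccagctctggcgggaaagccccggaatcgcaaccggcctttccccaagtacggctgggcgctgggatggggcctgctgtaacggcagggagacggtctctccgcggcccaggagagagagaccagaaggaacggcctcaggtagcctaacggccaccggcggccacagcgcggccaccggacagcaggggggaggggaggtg
ADM, chr11:10304823-10305072, plus strand: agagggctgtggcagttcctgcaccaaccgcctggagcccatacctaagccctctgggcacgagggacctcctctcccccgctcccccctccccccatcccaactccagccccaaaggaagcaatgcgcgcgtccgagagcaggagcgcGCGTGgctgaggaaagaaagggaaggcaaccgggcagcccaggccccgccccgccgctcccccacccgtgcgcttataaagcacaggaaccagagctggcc

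To ask how each treatment altered these genes, each group was compared with DMSO. A gene was called when its Benjamini-Hochberg adjusted p from edgeR's quasi-likelihood test, taken over all 15415 genes tested, was below 0.05 and its log2 fold change exceeded 0.5 in size. CA9, a carbonic anhydrase that is among the most hypoxia-specific HIF targets, was too low to test (0.0886 to 0.404 CPM over all samples), which left 31 genes. PB raised 2 of the 31 (PFKM and ADM) and lowered 5 (SLC16A3, ALDOC, LDHA, PDK3 and P4HA1), where 16.9% of all genes tested were higher and 11.3% lower. RA raised 3 (SLC2A3, SLC16A3 and HIF1A) and lowered 2 (SLC2A1 and HK2), against 10.8% and 2.54% of all genes. PB+RA raised 5 (SLC2A3, PFKM, VEGFA, NDRG1 and ADM), where 24.0% of all genes were higher. PB+RA lowered 12 (SLC2A1, HK2, ALDOC, TPI1, GAPDH, PGAM1, ENO1, PKM, LDHA, PDK1, PDK3 and P4HA1), where 17.9% of all genes were lower. The median log2 fold change of the 31 genes was -0.12 in PB, -0.15 in RA and -0.30 in PB+RA, beside medians of 0.032, 0.011 and 0.041 over all genes. The count of genes lowered by PB+RA was 11 within replicates 1 and 2 and 11 within replicates 3 and 4, and the count raised was 5 in both sets. With PB the 2 sets gave 3 higher and 4 lower, and 3 higher and 6 lower, and with RA they gave 2 higher and 1 lower, and 2 higher and 3 lower. A correction for GC content and transcript length, fitted on the 95.2% of tested genes with a gene model, gave 2 higher and 9 lower in PB, 1 higher and 5 lower in RA and 1 higher and 14 lower in PB+RA. The calls of falls with PB+RA were thus kept or added to by this correction, while most calls of rises were lost. Shares of all genes called under the correction or within each set of replicates are not given here. These counts can therefore not be set beside the shares above.

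**Figure D1:**
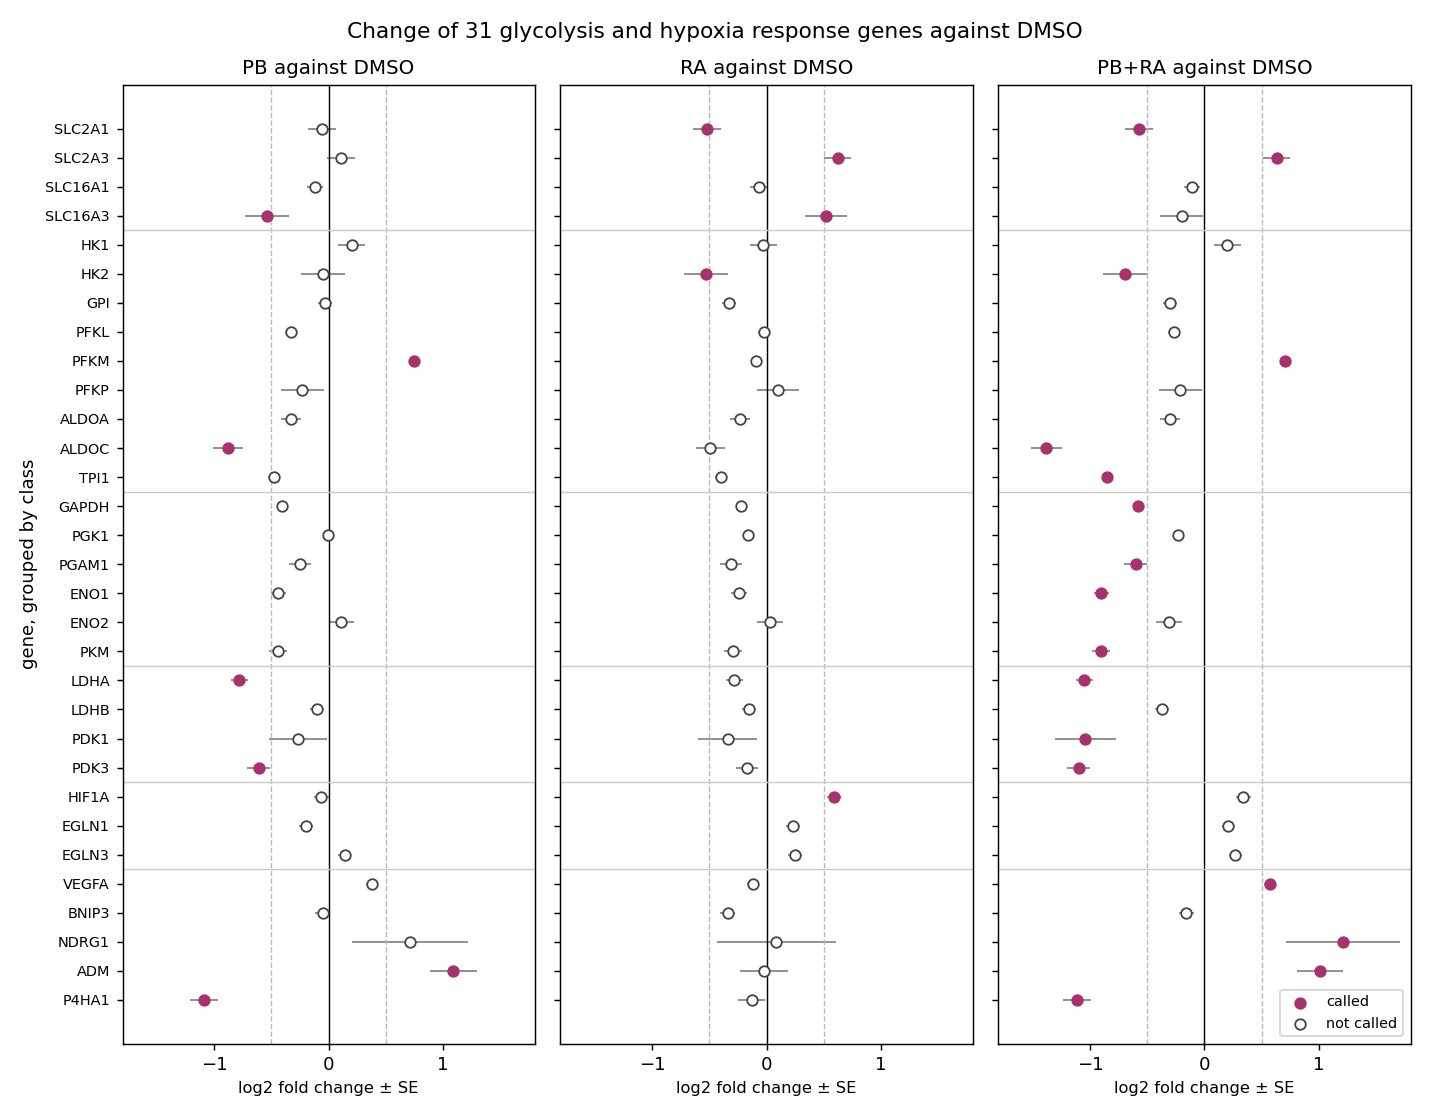
Log2 fold change with its standard error (horizontal axis) of the 31 genes tested (vertical axis, grouped by class from transporters at the top to other HIF targets at the bottom) for PB, RA and PB+RA against DMSO. Filled points were called, and dashed lines mark a log2 fold change of 0.5 in either direction; with PB+RA 12 genes were called lower, most of them enzymes from aldolase to the pyruvate kinase step and PDK1 and PDK3.

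Among the transporters, RA moved the main glucose carriers in opposite directions. SLC2A1 (GLUT1, the widely expressed glucose carrier) stood at 43.6, 51.1, 40.7 and 41.1 CPM in DMSO and at 26.9, 37, 31.4 and 28.7 in RA. It stood at 33.9, 41.0, 47.7 and 46.6 CPM in PB and at 27.1, 30.3, 35.2 and 28.9 in PB+RA. Every RA and PB+RA sample lay below every DMSO sample, and the PB samples overlapped DMSO. The log2 fold change was -0.52 ± 0.122 (SE, adjusted p = 0.00385) with RA and -0.57 ± 0.123 (adjusted p = 0.000683) with PB+RA, whereas PB gave -0.059 ± 0.121 (adjusted p = 0.706). The RA value was -0.45 without DMSO replicate 2 and -0.47 without RA replicate 1, short of the fold threshold. Within replicates 3 and 4 alone, the PB+RA value of SLC2A1 was -0.41 and was not called.

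SLC2A3 (GLUT3, the high-affinity carrier typical of neurons) stood at 23.1, 26.1, 20.6 and 22.6 CPM in DMSO and at 38.6, 37.8, 32 and 34.3 in RA. It stood at 27.8, 30.4, 21.1 and 20.5 CPM in PB and at 33.8, 41.0, 31.7 and 39.1 in PB+RA. All RA and PB+RA samples lay above all DMSO samples, with log2 fold changes of 0.62 ± 0.121 (adjusted p = 0.000967) and 0.63 ± 0.121 (adjusted p = 0.000235). After the GC and length correction these were 0.45 and 0.42, under the fold threshold. The summed level of both carriers was 67.2 ± 6.99 CPM (SD, n = 4) in DMSO, 66.7 ± 5.50 with RA, 67.3 ± 4.07 with PB and 66.8 ± 4.32 with PB+RA. The mesenchymal marker sum, which also rose with RA, is given above.

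The lactate carrier SLC16A1 (MCT1) was not called in any comparison. Its levels were 198, 234, 231 and 232 CPM in DMSO, 209, 226, 211 and 212 in RA, 197, 201, 204 and 219 in PB and 180, 237, 207 and 219 in PB+RA. SLC16A3 (MCT4, the lactate exporter of strongly glycolytic cells) was far lower, at 0.199 CPM per kilobase of exon in DMSO against 35.2 for SLC16A1. It stood at 1.60, 1.71, 2.31 and 1.74 CPM in DMSO and 2.91, 2.43, 2.60 and 2.70 in RA. The values were 1.20, 1.40, 1.47 and 0.996 CPM in PB and 1.27, 1.68, 2.14 and 1.43 in PB+RA. It rose with RA (0.52 ± 0.180, adjusted p = 0.0348) and fell with PB (-0.54 ± 0.193, adjusted p = 0.0259), without overlap with DMSO in either. A fit with the replicate number as a block kept both calls (adjusted p = 0.0095 in RA and 0.0142 in PB). Both were fragile when single libraries were left out of the main fit. The rise was lost on leaving out DMSO replicate 1, 2 or 4, RA replicate 1, 3 or 4, PB replicate 1 or 3, or PB+RA replicate 4 (log2 fold change 0.43 to 0.50), and the fall on leaving out DMSO replicate 3 (-0.43), PB replicate 1 (-0.53) or PB replicate 4 (-0.47). SLC16A3 also shares exon bases with CSNK1D, which lies on the opposite strand at 267 CPM, and the strand setting of the counts is not stated.

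In upper glycolysis PFKM was the only gene called higher, and ALDOC, TPI1 and HK2 were called lower in PB+RA. PFKM stood at 208, 213, 218 and 213 CPM in DMSO and at 202, 200, 207 and 197 in RA. It stood at 363, 346, 363 and 360 CPM in PB and at 373, 356, 356 and 327 in PB+RA. The 8 samples with PB all lay above the 8 without it, and the rise was 68.2% in PB (log2 fold change 0.75 ± 0.044, adjusted p = 1.75e-09) and 62.6% in PB+RA (0.70 ± 0.044, adjusted p = 5.76e-10). PFKM shares 516 exon bases with SENP1, which lies on the opposite strand at 31.9 CPM. With the GC and length correction the PB rise was still called and the PB+RA value was 0.46, under the fold threshold.

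Phosphofructokinase catalyses the committing step of glycolysis and is built from liver (PFKL), muscle (PFKM) and platelet (PFKP) subunits. Per kilobase of exon, PFKM made up 41.1% ± 4.51 (SD, n = 4) of the 3 transcripts in DMSO, 38.2% ± 2.17 with RA, 58.3% ± 5.49 with PB and 56.8% ± 2.36 with PB+RA. PFKP, the highest in DMSO at 44.9% ± 5.79, took 32.4% ± 6.22 in PB and 33.3% ± 2.95 in PB+RA, and PFKL went from 14% ± 1.31 to 9.37% ± 0.864 and 9.89% ± 0.924. PFKM and PFKP overlapped in DMSO, and in all samples with PB the share of PFKM was the larger. PFKL itself changed by -0.33 ± 0.052 with PB (adjusted p = 4.84e-05), which is under the fold threshold, and PFKP by -0.23 ± 0.187 (adjusted p = 0.319). PFKP also differed between the sets of replicates, at 276 and 326 CPM in DMSO replicates 1 and 2 and 198 and 217 in replicates 3 and 4. With the replicate number as a block in the fit, PFKP changed by -0.24 in PB (adjusted p = 0.00485), still under the fold threshold.

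ALDOC showed the largest fall of the set. It stood at 13.4, 14.0, 16.1 and 14.6 CPM in DMSO, 8.6, 12.2, 10.0 and 10.9 in RA, 6.69, 8.71, 7.70 and 8.37 in PB, and 4.61, 5.05, 6.47 and 6.61 in PB+RA. The groups did not overlap, except that the RA minimum of 8.6 lay under the PB maximum of 8.71. The fall was 61.7% in PB+RA (-1.38 ± 0.134, adjusted p = 1.20e-07) and 45.8% in PB (-0.88 ± 0.131, adjusted p = 2.88e-05). In RA the log2 fold change of -0.49 ± 0.129 (adjusted p = 0.00757) lay just under the fold threshold, and DESeq2 gave -0.52 with a call. ALDOA, usually the main aldolase, was counted at only 7.08 to 10.7 CPM over all samples. A gene model on the same strand shares 1639 of its exon bases. How many reads this took from ALDOA was not tested, so its level is uncertain.

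TPI1 (triosephosphate isomerase, which interconverts the products of aldolase) stood at 953, 1028, 1031 and 992 CPM in DMSO, 789, 800, 714 and 750 in RA, 695, 739, 700 and 744 in PB, and 564, 586, 567 and 554 in PB+RA. Every PB+RA sample lay below every sample of the other 3 groups. TPI1 fell by 44.3% in PB+RA (-0.85 ± 0.0468, adjusted p = 1.33e-10), which was called under every alternative except a log2 fold minimum of 1. With PB alone TPI1 changed by -0.48 ± 0.0465 (adjusted p = 3.31e-07) and with RA by -0.40 ± 0.0465 (adjusted p = 9.69e-06), both under the fold threshold. HK2 (the inducible hexokinase of growing and tumour cells) stood at 46.3, 65.0, 44.1 and 46.4 CPM in DMSO, 33.5, 48.6, 28.9 and 30.0 in RA, 49.6, 60.3, 41.1 and 44 in PB, and 30.5, 42.6, 25.3 and 28.8 in PB+RA. Replicate 2 was the highest in each group, and the PB+RA samples all lay below the DMSO samples. HK2 fell by 38.1% in PB+RA (-0.69 ± 0.194, adjusted p = 0.0053), and this was not called within replicates 1 and 2 (-0.63, adjusted p = 0.107). In RA (-0.53 ± 0.193, adjusted p = 0.0454) the groups overlapped, and the call was lost without DMSO replicate 2 (-0.39), DMSO replicate 4 (-0.57), RA replicate 1 (-0.52), 3 (-0.47) or 4 (-0.48), PB replicate 4 (-0.54) or PB+RA replicate 1 (-0.54). In a fit with the replicate number as a block, HK2 was called in RA (-0.54, adjusted p = 7.84e-08). It was also called there in PB+RA (-0.70, adjusted p = 2.53e-10). HK1, the housekeeping hexokinase, GPI and PFKL were not called against DMSO. Of these GPI, the isomerase that follows hexokinase, had its largest value in RA (-0.33 ± 0.0616, adjusted p = 0.000607). HK1 changed by 0.20 ± 0.119 in both PB and PB+RA (adjusted p = 0.17 and 0.148). With the replicate number as a block HK1 changed by 0.20 in both (adjusted p = 7.76e-05 and 7.85e-05), under the fold threshold. The GC and length correction gave HK1 0.064 in PB and -0.031 in PB+RA.

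In lower glycolysis, PB+RA lowered 4 of 6 genes, where 17.9% of all genes tested were lower. PB or RA alone gave no call, where 11.3% and 2.54% of all genes were lower and 16.9% and 10.8% higher. The median log2 fold change of the 6 was -0.59 in PB+RA, -0.33 in PB and -0.23 in RA. PKM (pyruvate kinase, the last step) stood at 2538, 2726, 2782 and 2743 CPM in DMSO, 2172, 2200, 2223 and 2310 in RA, 1756, 1936, 2097 and 2172 in PB, and 1242, 1420, 1624 and 1603 in PB+RA. ENO1 (the common enolase) stood at 1545, 1792, 1619 and 1588 CPM in DMSO, 1391, 1544, 1300 and 1342 in RA, 1137, 1279, 1174 and 1222 in PB, and 820, 980, 885 and 894 in PB+RA. For both genes all PB+RA samples lay below all other samples, and all samples of each single agent lay below all DMSO samples. PKM fell by 46.5% (-0.90 ± 0.0782, adjusted p = 3.15e-08) and ENO1 by 46.4% (-0.90 ± 0.0671, adjusted p = 4.92e-09) in PB+RA. With PB alone they changed by -0.44 ± 0.0777 and -0.44 ± 0.0666, and with RA by -0.29 ± 0.0776 and -0.24 ± 0.0665, with adjusted p between 3.28e-05 and 0.0105 but under the fold threshold.

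GAPDH, often used as a reference gene, was the most abundant of the set at 1946 CPM per kilobase in DMSO. It stood at 4645, 4703, 4669 and 4637 CPM in DMSO, 4041, 4091, 3853 and 4111 in RA, 3394, 3497, 3521 and 3659 in PB, and 3075, 3084, 3264 and 3274 in PB+RA, with no overlap between any groups. The fall was 33.2% in PB+RA (-0.58 ± 0.038, adjusted p = 9.29e-10), and the changes of -0.41 ± 0.038 in PB (adjusted p = 2.01e-07) and -0.22 ± 0.0379 in RA (adjusted p = 0.00032) were under the fold threshold. PGAM1 (phosphoglycerate mutase) stood at 136, 138, 122 and 119 CPM in DMSO, 111, 116, 93.9 and 95.9 in RA, 118, 121, 99.0 and 96.1 in PB, and 95.8, 95.9, 77.5 and 77.5 in PB+RA. Replicates 1 and 2 were the higher ones in every group, and all PB+RA samples lay below all DMSO samples (-0.60 ± 0.0995, adjusted p = 5.61e-05). PGK1 (phosphoglycerate kinase) and ENO2, the neuronal enolase, were not called. PGK1 had log2 fold changes of -0.0096 in PB, -0.16 in RA and -0.23 in PB+RA, and ENO2 of 0.11, 0.03 and -0.31. The PB+RA values had adjusted p of 0.000166 for PGK1 and 0.0202 for ENO2 but were under the fold threshold. All PB+RA samples of PGK1 lay below all DMSO samples, and those of ENO2 overlapped DMSO.

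Summed over the 15 glycolytic enzymes, transcripts took 12538, 13327, 12845 and 12701 CPM in DMSO, 11071, 11424, 10580 and 10996 in RA, 10006, 10556, 10387 and 10708 in PB, and 8470, 8957, 9008 and 8844 in PB+RA. The 4 DMSO samples lay above all others and the 4 PB+RA samples below all others. The mean was 85.7% of DMSO with RA, 81% with PB and 68.6% with PB+RA. This sum is weighted to abundant genes, as GAPDH, PKM and ENO1 gave 4664, 2697 and 1636 of the 12853 CPM in DMSO. Over the 15 enzymes the median log2 fold change in PB+RA was -0.31. Of the 15, 7 were called lower and 1 higher, where 17.9% of all genes tested were lower and 24.0% higher. The steps did not move alike. In PB+RA the summed hexokinases stood at 112% ± 17.4 (SD, n = 4) of the DMSO mean and the summed phosphofructokinases at 117% ± 9.12, whereas triosephosphate isomerase stood at 56.7% ± 1.33, enolase at 58.4% ± 3.02 and pyruvate kinase at 54.6% ± 6.62. Phosphoglycerate kinase at 87% ± 3.49 was the least changed of the lower steps. The aldolase sum stood at 56.3% ± 4.75, but it held 24 CPM in DMSO, of which ALDOC gave 14.5, and it rests on the uncertain count of ALDOA, whose own log2 fold change in PB+RA was -0.30.

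**Figure D2:**
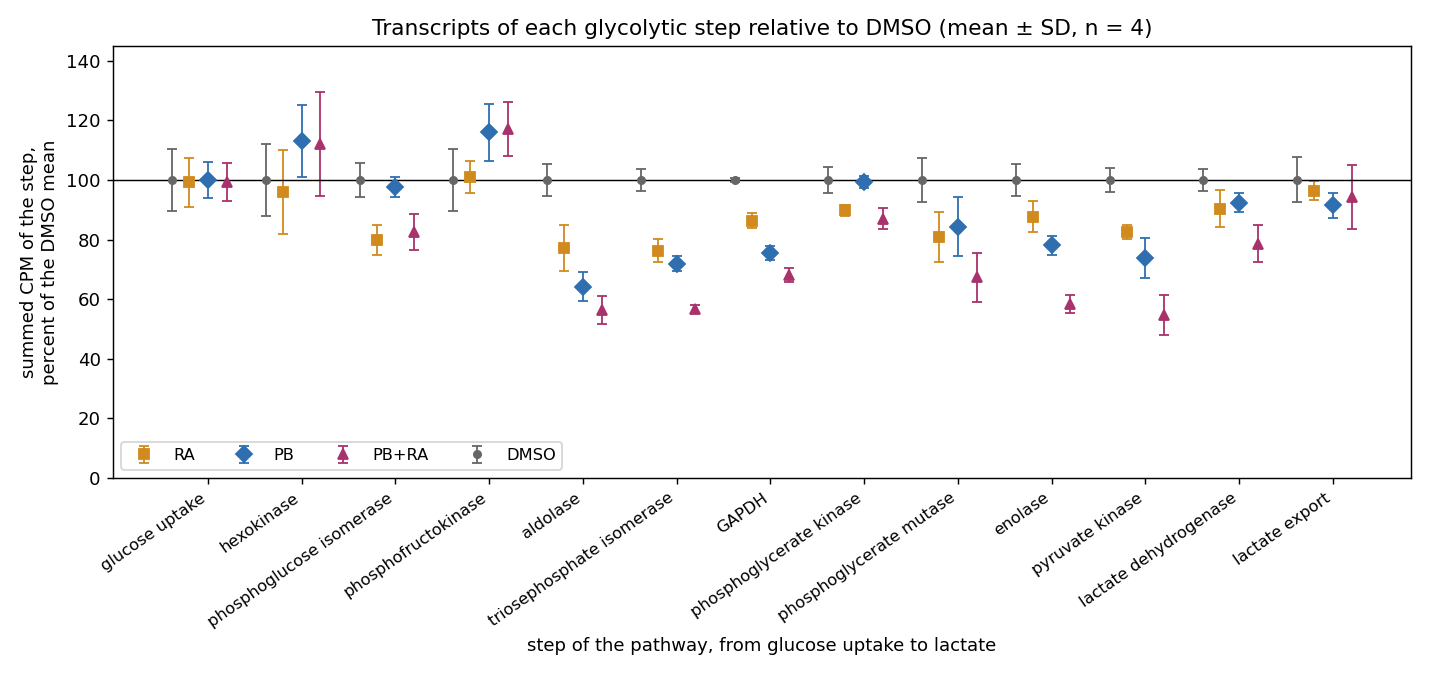
Summed CPM of the genes of each step, as percent of the DMSO mean (vertical axis), in the order of the pathway from glucose uptake to lactate export (horizontal axis), as mean ± SD of 4 samples per group. The steps up to phosphofructokinase lie near or above 100% except phosphoglucose isomerase, and in PB+RA triosephosphate isomerase, GAPDH, phosphoglycerate mutase, enolase and pyruvate kinase lie between 54.6% and 68.1%. The aldolase step rests on an uncertain count of ALDOA.

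Genes that decide the fate of pyruvate were called lower in PB+RA in 3 of 4 cases, where 17.9% of all genes tested were lower. LDHA (the lactate dehydrogenase subunit that favours lactate) stood at 31.1, 26.5, 28.5 and 29.0 CPM in DMSO, 24.5, 21.8, 22.6 and 26.4 in RA, 16.5, 16.7, 16.3 and 17.6 in PB, and 13.1, 13.5, 15.2 and 14.8 in PB+RA. All PB+RA samples lay below all PB samples, which lay below all samples without PB. The fall was 41.6% in PB (-0.78 ± 0.0744, adjusted p = 2.58e-07) and 51.8% in PB+RA (-1.05 ± 0.075, adjusted p = 2.75e-09), and in RA the value was -0.28 ± 0.0731 (adjusted p = 0.00693). LDHB (the subunit of oxidative tissues) was far higher, at 539 CPM per kilobase in DMSO against 4.78 for LDHA. It stood at 1560, 1685, 1627 and 1555 CPM in DMSO, 1502, 1569, 1337 and 1405 in RA, 1515, 1537, 1415 and 1508 in PB, and 1257, 1421, 1207 and 1198 in PB+RA, and its value of -0.37 ± 0.0607 in PB+RA (adjusted p = 5.28e-05) was under the fold threshold. LDHA has many processed pseudogenes, and how many of its reads were lost to them was not tested, so its level is uncertain. LDHB shares 997 exon bases with another gene model on the same strand, and the share of its reads lost to it was not tested.

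PDK1 and PDK3 both phosphorylate and thereby inactivate pyruvate dehydrogenase. PDK3 stood at 12.6, 13.7, 13.5 and 15.4 CPM in DMSO, 12, 12.3, 14.1 and 11 in RA, 9.10, 9.72, 7.89 and 9.28 in PB, and 6.20, 5.85, 6.79 and 7.38 in PB+RA. The PB samples lay below all DMSO and RA samples and the PB+RA samples below all PB samples. PDK3 fell by 34.7% in PB (-0.61 ± 0.101, adjusted p = 7.98e-05) and fell by 53.4% in PB+RA (-1.10 ± 0.103, adjusted p = 7.82e-08), and the PB value was -0.49, without a call, within replicates 1 and 2. PDK1, the HIF-regulated kinase, stood at 8.97, 13.8, 7.05 and 8.17 CPM in DMSO, 7.21, 11.1, 5.54 and 6.31 in RA, 9.01, 10.9, 5.47 and 6.11 in PB, and 4.81, 5.67, 3.92 and 4.36 in PB+RA. Replicate 2 was the highest in every group, and the PB+RA samples all lay below the DMSO samples (-1.04 ± 0.263, adjusted p = 0.0024). Neither PB (-0.27 ± 0.255) nor RA (-0.34 ± 0.255) alone gave a call for PDK1.

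Among the HIF regulators, RA raised HIF1A. Its transcript stood at 712, 819, 776 and 808 CPM in DMSO, 1138, 1136, 1206 and 1222 in RA, 717, 794, 727 and 741 in PB, and 870, 1041, 1031 and 1088 in PB+RA. The 8 samples with RA all lay above the 8 without it. The rise was 50% in RA (0.59 ± 0.0632, adjusted p = 4.71e-06), and the PB+RA value of 0.34 ± 0.0631 (adjusted p = 0.000146) was under the fold threshold. EGLN1 (PHD2, the main oxygen sensor) stood at 86.5, 101, 103 and 96.1 CPM in DMSO, 109, 110, 119 and 117 in RA, 82.3, 87.6, 84.1 and 81.1 in PB, and 106, 109, 122 and 118 in PB+RA. EGLN3 (PHD3, itself a HIF target) stood at 86.8, 91.6, 98.4 and 96.6 CPM in DMSO, 118, 110, 111 and 107 in RA, 104, 103, 106 and 98.9 in PB, and 125, 105, 119 and 110 in PB+RA. Both hydroxylases lay above DMSO in all samples with RA, by log2 fold changes of 0.21 to 0.27, and neither was called. After the GC and length correction the values were 0.08 (EGLN1) and 0.068 (EGLN3) in RA, and 0.035 and 0.03 in PB+RA. EGLN3 also lay above DMSO in all PB samples (0.14 ± 0.0589, adjusted p = 0.0482, and -0.0034 after the correction). EGLN1 shares 3004 exon bases with another gene model on the same strand, and the share of its reads lost to it was not tested.

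The other HIF targets split. P4HA1 stood at 55.8, 69.4, 58.8 and 63.6 CPM in DMSO, 55.0, 57.5, 54.9 and 59.6 in RA, 28.5, 30.0, 26.7 and 31 in PB, and 20.8, 28.1, 30.5 and 37.4 in PB+RA. The samples with PB all lay below those without it, with a fall of 53% in PB (-1.09 ± 0.122, adjusted p = 1.52e-06) and 53.8% in PB+RA (-1.11 ± 0.122, adjusted p = 5.43e-07). ADM moved the other way, at 1.81, 2.57, 2.56 and 3.29 CPM in DMSO, 1.72, 2.43, 2.90 and 3.06 in RA, 4.89, 6, 4.66 and 6.20 in PB, and 4.29, 6.51, 4.44 and 5.84 in PB+RA. The groups with and without PB did not overlap for ADM either, with log2 fold changes of 1.09 ± 0.203 (adjusted p = 0.000258) in PB and 1.01 ± 0.203 (adjusted p = 0.000326) in PB+RA. The calls of P4HA1 and ADM with PB and PB+RA against DMSO held under all alternatives in which they were tested.

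VEGFA (the endothelial growth factor) stood at 123, 128, 118 and 118 CPM in DMSO, 107, 110, 116 and 117 in RA, 162, 163, 159 and 147 in PB, and 183, 179, 197 and 176 in PB+RA. The 4 groups did not overlap. VEGFA rose by 48.3% in PB+RA (0.57 ± 0.0516, adjusted p = 5.45e-08), its PB value of 0.38 ± 0.0516 (adjusted p = 1.17e-05) was under the fold threshold, and the GC and length correction gave 0.27 in PB+RA, without a call. NDRG1 (a stress-response gene linked to differentiation) stood at 0.851, 0.571, 2.28 and 2.67 CPM in DMSO, 1.31, 0.890, 2.64 and 1.98 in RA, 1.46, 1.40, 4.47 and 3.12 in PB, and 2.35, 2.44, 5.46 and 4.92 in PB+RA. Replicates 3 and 4 were higher than 1 and 2 in every group, and PB+RA exceeded DMSO within each replicate number although the groups overlapped. The PB+RA value was 1.21 ± 0.499 (adjusted p = 0.0437), a call lost on leaving out DMSO replicate 1 (0.99) or 2 (0.91), RA replicate 1 (1.18) or 4 (1.20), PB replicate 4 (1.18), or PB+RA replicate 3 (0.94) or 4 (1.06), and after the GC and length correction (0.93). With the replicate number as a block, NDRG1 was also called in PB against DMSO (0.73, adjusted p = 0.0016), in PB+RA against PB (0.54, adjusted p = 0.0105) and in PB+RA against RA (1.14, adjusted p = 8.79e-06). BNIP3, which acts in mitophagy, was not called, with values of -0.34 with RA, -0.053 with PB and -0.16 with PB+RA. CA9 gave 27 reads in total in DMSO, 31 with RA, 11 with PB and 13 with PB+RA, and it shares exon bases with ARHGEF39, on the opposite strand at 9.59 CPM.

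**Figure D3:**
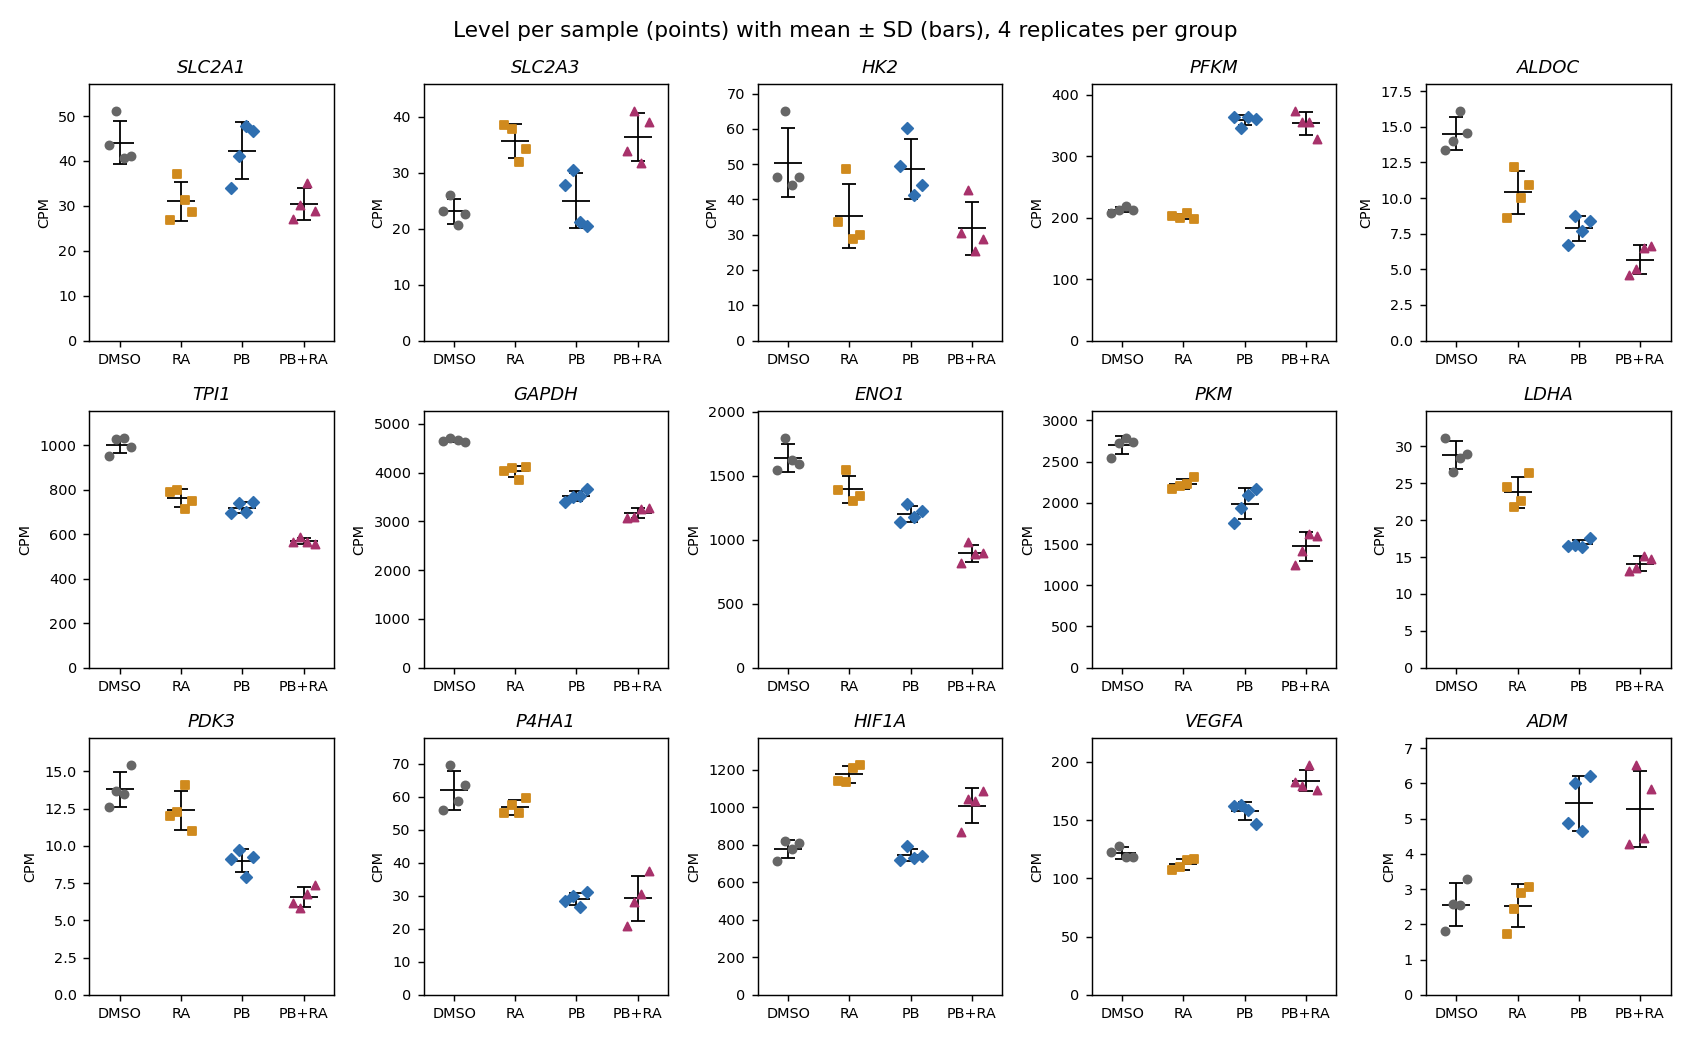
CPM (vertical axis, from 0) of 15 of the genes in each of the 16 samples (points, by treatment on the horizontal axis), with mean ± SD of 4 replicates in black. TPI1, GAPDH, ENO1 and PKM are lowest in PB+RA, SLC2A3 and HIF1A are higher in the samples with RA, and PFKM, ADM and P4HA1 separate the samples with PB from those without.

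Several pairs of genes code for the same activity, and the ratio of their counts within a sample does not depend on library size. Over 10 such pairs and 5 comparisons, 24 of 50 exact two-sided permutation tests of 4 samples against 4 reached p = 0.0286, the smallest that 70 arrangements allow, because the groups did not overlap. The adjusted p of these 24 was 0.0595, so none passed 0.05, and the ratios are given as separations of the samples. How often ratios of other gene pairs separate in this way was not tested, so the count of 24 says nothing particular about these pairs. The log2 ratio of SLC2A3 to SLC2A1 was -0.93 ± 0.0543 (SD, n = 4) in DMSO, 0.21 ± 0.235 with RA, -0.77 ± 0.479 with PB and 0.26 ± 0.28 with PB+RA. Per kilobase of exon, the mean level of SLC2A3 was 3.18 CPM against 6.67 for SLC2A1 in DMSO, and 4.92 against 4.69 in RA. PB samples fell into 2 sets for this ratio, at -0.28 and -0.43 in replicates 1 and 2 and at -1.18 in both replicates 3 and 4. HK2 relative to HK1 was -3.27 ± 0.132 in DMSO, -3.78 ± 0.172 with RA, -3.52 ± 0.108 with PB and -4.17 ± 0.163 with PB+RA, with all PB+RA samples below all others.

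With PB, PFKM relative to PFKL was 2.34 ± 0.0837 against 1.25 ± 0.0455 in DMSO, a difference of 1.08 ± 0.0476 (SE), and PB+RA differed from DMSO by 0.97 ± 0.0634. ENO2 relative to ENO1 was higher than DMSO by 0.54 ± 0.16 in PB and 0.58 ± 0.165 in PB+RA, and LDHB relative to LDHA by 0.67 ± 0.0774 and 0.68 ± 0.123. Neither ENO2 nor LDHB was called higher in these comparisons, and the limits on LDHA and LDHB given above apply to their ratio. ALDOC relative to ALDOA was lower by 0.56 in PB and 1.10 in PB+RA on the log2 scale, with the limit on ALDOA given above. EGLN3 relative to EGLN1 was higher in PB than in DMSO by 0.35 ± 0.0414, and SLC16A3 relative to SLC16A1 was higher in RA by 0.60 ± 0.126. The latter ratio differed by -0.40 ± 0.18 between PB and DMSO and by -0.69 ± 0.165 between PB+RA and RA, again without overlap. The ratios PFKP to PFKL and PDK3 to PDK1 overlapped between the groups in all 5 comparisons.

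**Figure D4:**
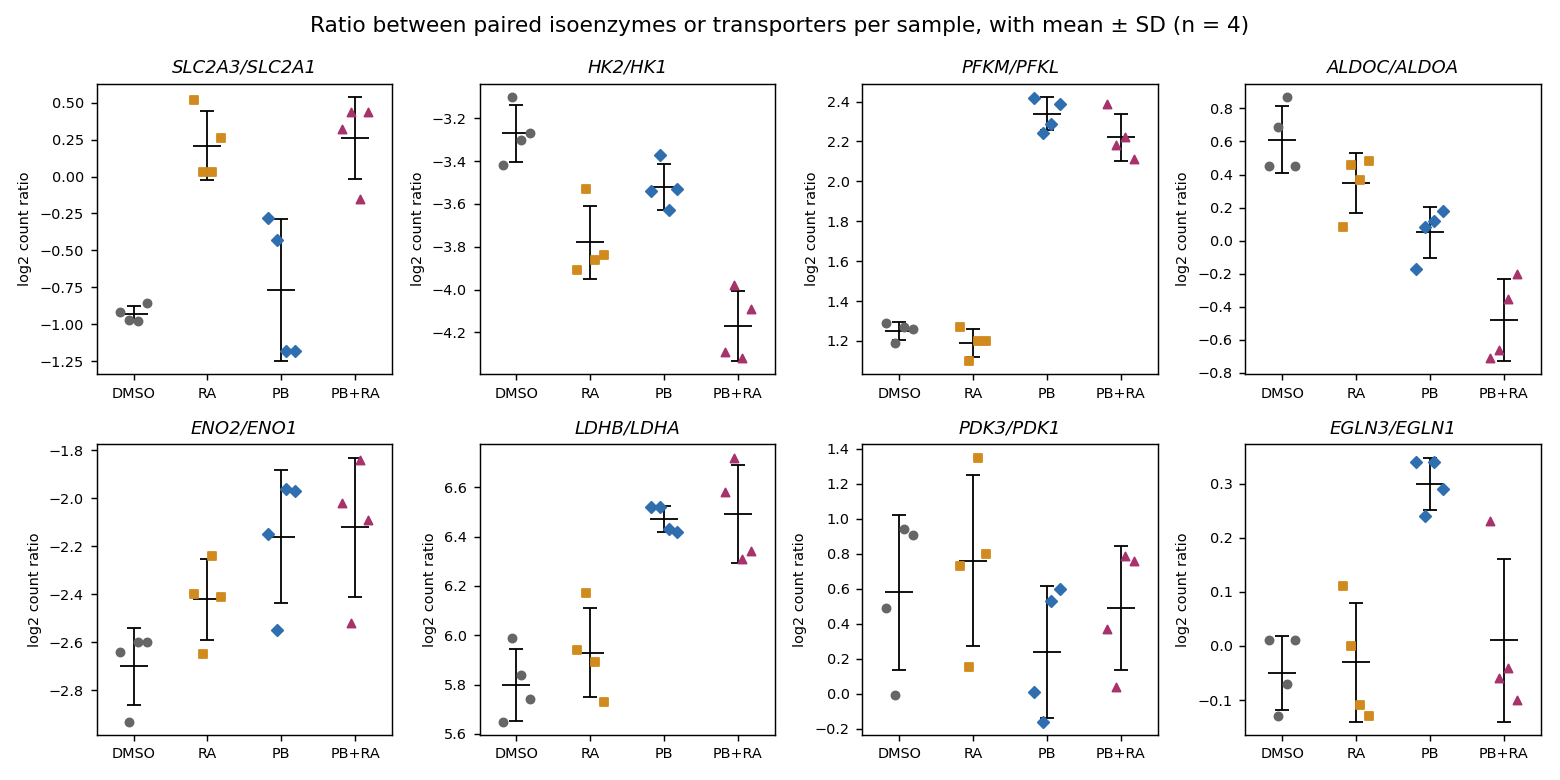
Log2 ratio of the counts of 2 genes with the same activity (vertical axis, scaled per panel) in each of the 16 samples (points, by treatment on the horizontal axis), with mean ± SD of 4 replicates in black. SLC2A3/SLC2A1 separates RA and PB+RA from DMSO, PFKM/PFKL and LDHB/LDHA separate PB and PB+RA from DMSO, and PDK3/PDK1 overlaps throughout.

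To ask what each agent added to the other, PB+RA was compared with PB and with RA. These comparisons share the PB+RA samples. Adding RA to PB raised 1 gene (SLC2A3, 0.52 ± 0.122, adjusted p = 0.00337) and lowered 4, where 9.02% of all genes tested were higher and 7.27% lower. The 4 were PDK1 (-0.77 ± 0.265, adjusted p = 0.031), HK2 (-0.64 ± 0.195, adjusted p = 0.0167), SLC2A1 (-0.51 ± 0.123, adjusted p = 0.00415) and ALDOC (-0.50 ± 0.136, adjusted p = 0.00855). With the replicate block 2 genes were higher, and the GC and length correction gave 0 higher and 7 lower. The block fit kept all 5 calls. Its adjusted p was 5.15e-09 for HK2, 5.93e-06 for PDK1, 8.25e-06 for SLC2A3, 0.000341 for SLC2A1 and 0.00059 for ALDOC. In the fit without the block, each of the 5 calls was lost on leaving out some of the libraries. They were PB replicates 3 and 4 and PB+RA replicates 2 and 4 for SLC2A3, PB replicates 1 and 2 and PB+RA replicates 1, 3 and 4 for PDK1, and PB replicate 2 and PB+RA replicates 3 and 4 for HK2. For SLC2A1 they were DMSO replicates 1 and 3, RA replicates 3 and 4, PB replicates 3 and 4 and PB+RA replicates 1 and 4, and for ALDOC the same DMSO and RA replicates, PB replicates 2, 3 and 4 and PB+RA replicates 1 and 2. ENO1 and PKM lay at -0.46 and -0.47, with adjusted p of 5.93e-05 and 0.000202, just under the fold threshold. Within replicates 1 and 2 this comparison gave 0 higher and 3 lower, and within replicates 3 and 4 it gave 3 higher and 3 lower.

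Adding PB to RA raised 3 genes (PFKM, VEGFA and ADM) and lowered 8 (SLC16A3, ALDOC, ENO1, PKM, LDHA, PDK1, PDK3 and P4HA1), where 14.9% of all genes were higher and 14.1% lower. ADM was higher by 1.04 ± 0.205 (adjusted p = 0.000421), PFKM by 0.79 ± 0.0441 (adjusted p = 4.58e-10) and VEGFA by 0.69 ± 0.0517 (adjusted p = 1.21e-08). The largest falls were those of P4HA1 (-0.98 ± 0.122, adjusted p = 4.38e-06), PDK3 (-0.94 ± 0.103, adjusted p = 1.09e-06), ALDOC (-0.89 ± 0.135, adjusted p = 3.22e-05) and LDHA (-0.77 ± 0.0752, adjusted p = 2.65e-07). The call of PDK1 (-0.70 ± 0.265, adjusted p = 0.0341) was lost without RA replicate 2 (-0.48) or PB+RA replicate 1 (-0.74), 3 (-0.64) or 4 (-0.65), and that of SLC16A3 (-0.72 ± 0.185, adjusted p = 0.00352) within replicates 3 and 4 (-0.55). With the replicate block both were called, PDK1 at -0.68 (adjusted p = 9.89e-06) and SLC16A3 at -0.73 (adjusted p = 0.0007). The counts within the sets were 4 higher and 8 lower in replicates 1 and 2, and 4 higher and 7 lower in replicates 3 and 4.

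Whether the effects added up was tested as an interaction, the log2 change in PB+RA less the sum of the changes with PB and with RA. None of the 31 genes was called above or below the sum, where 0.415% of all genes were above and 3.02% below. By edgeR 6 of the 31 had an unadjusted p under 0.05, and DESeq2 gave 5 such genes and likewise 0 calls. In the main edgeR fit VEGFA had the clearest departure. Its interaction of 0.31 ± 0.0728 (adjusted p = 0.0186) was under the fold threshold. ENO2, at -0.45 ± 0.156 (adjusted p = 0.117), was called below the sum without PB replicate 2 (-0.54) or PB+RA replicate 3 (-0.54). With the replicate block, ENO2 (-0.45, adjusted p = 0.00168) departed as clearly as VEGFA (0.31, adjusted p = 0.00216). ENO1 (-0.22, adjusted p = 0.0089), BNIP3 (0.23, adjusted p = 0.0288) and HIF1A (-0.18, adjusted p = 0.0452) followed. All of these block values were under the fold threshold. The interaction of TPI1 was 0.03 ± 0.0657, of LDHA 0.0049 ± 0.106, of GAPDH 0.044 ± 0.0536, of PKM -0.18 ± 0.11 and of ENO1 -0.22 ± 0.0941.

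Other genes of the same pathways were taken from 4 further lists. Of 33 tested among 41 other glycolysis and pyruvate genes, 6 were higher and 3 lower in PB+RA against DMSO, with a median of -0.11, where 24.0% of all genes tested were higher and 17.9% lower. Both counts are smaller than those shares would give. PC (pyruvate carboxylase, which feeds the citric acid cycle) averaged 55.4 ± 2.29 CPM (SD, n = 4) under DMSO, 31.1 ± 1.71 under RA, 51.1 ± 7.89 under PB and 23.3 ± 1.77 under PB+RA (-1.28 ± 0.0938, adjusted p = 4.13e-09). SLC16A7 (the lactate and pyruvate carrier MCT2) averaged 20.3 ± 0.565, 10.9 ± 0.938, 18.2 ± 1.57 and 9.79 ± 1.97 CPM in the same order (-1.08 ± 0.119, adjusted p = 5.26e-07). Both fell with RA and were not called with PB alone. PDP1, the phosphatase that reactivates pyruvate dehydrogenase and so opposes the PDKs, averaged 21.8 ± 1.54 CPM under DMSO, 28.5 ± 2.28 under RA (0.38 ± 0.108, adjusted p = 0.0119, under the fold threshold), 33.1 ± 4.75 under PB (0.60 ± 0.108, adjusted p = 0.000176) and 38.3 ± 5.68 under PB+RA (0.79 ± 0.108, adjusted p = 6.85e-06). A pair of genes in this list lay below the 10 CPM needed for naming and are given after their values were seen. FBP1 (fructose bisphosphatase, which opposes phosphofructokinase in gluconeogenesis) fell from 5.56 ± 0.61 to 1.39 ± 0.211 CPM in PB+RA (-2.03 ± 0.155, adjusted p = 6.44e-09). PDK4, a kinase with the same substrate as PDK1 and PDK3, was higher, at 0.0971 ± 0.0735 CPM under DMSO, 0.551 ± 0.474 under RA (2.40 ± 0.861, adjusted p = 0.0402) and 0.666 ± 0.541 under PB+RA (2.61 ± 0.852, adjusted p = 0.013). It had at most 27 reads in a library, and its SD was close to its mean. The pentose phosphate pathway, which branches from glucose 6-phosphate, had 2 of 7 tested genes lower in PB+RA, beside the 17.9% of all genes, and none higher. They were TKT (transketolase, -0.53) and RPE (ribulose phosphate epimerase, -0.51).

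Of 29 tested among 30 further HIF targets, PB+RA raised 13 and lowered 2 (TFRC and ERO1A) with a median of 0.40, where 24.0% of all genes were higher and 17.9% lower and the median was 0.041. RA raised 8 and lowered 1 (10.8% and 2.54% of all genes), and PB raised 7 and lowered 5 (16.9% and 11.3%). VLDLR (the very low density lipoprotein receptor) averaged 15.6 ± 1.13 CPM under DMSO, 31.6 ± 2.64 under RA, 50.7 ± 4.04 under PB and 72 ± 5.05 under PB+RA (2.18 ± 0.0784, adjusted p = 1.19e-12). BHLHE40 (a transcription factor of the hypoxia and circadian response) averaged 41 ± 2.80, 92.1 ± 3.09, 47.7 ± 6.72 and 133 ± 16.5 CPM in that order (1.68 ± 0.0984, adjusted p = 2.75e-10), and STC2, a secreted stress glycoprotein, 8.82 ± 3.15, 24.8 ± 8.95, 17.6 ± 3.96 and 18.7 ± 4.81 (1.05 ± 0.315, adjusted p = 0.00834). Among 11 tested genes of the HIF machinery, 2 were higher and 1 lower in PB+RA, no more than the shares of all genes would give. EPAS1 (HIF-2α, the other main oxygen-regulated subunit) stood at 65.9 ± 23.5 CPM in DMSO, 62.2 ± 20.8 under RA, 131 ± 54.3 under PB and 196 ± 65.5 under PB+RA. The log2 fold change of EPAS1 was 0.99 ± 0.338 in PB (adjusted p = 0.0223) and 1.55 ± 0.341 in PB+RA (adjusted p = 0.000977). EPAS1 thus rose with PB, whereas HIF1A rose with RA. ARNT2, the neuronal partner subunit, was higher with RA (0.69) and PB+RA (0.64), and RBX1, a subunit of the ubiquitin ligase that degrades HIF, was lower in PB+RA (-0.72).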

How the data were processed

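Poly(A) RNA was sequenced in 16 SK-N-BE(2)C samples, 4 per group, after a stranded library preparation. Per the submitters' notes, reads were trimmed with TrimGalore 0.6.4 and aligned to hg19 with STAR 2.6.1d, which counted reads per gene according to the methods. The methods list a different patch release of STAR. The authors deposited these unnormalised counts, together with CPM values, which equalled each count divided by the sample's total. The annotation release and the strand column used are not given in the sources used here. A deposited table of the authors' log2 fold changes and p-values was not used. Library totals of 19515779 to 31620821 counts set the counting precision.

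Counts were tested with edgeR 4.0.16 (R 4.3.3): filterByExpr, TMM factors (0.983 to 1.02) and the robust quasi-likelihood test over all 16 samples with group as the only term. P-values were adjusted by Benjamini-Hochberg over 15415 genes, and a call needed an adjusted p below 0.05 and a log2 fold change beyond 0.5. The script was checked on simulated data. Log2 count ratios, with 0.5 added to each count, were compared by exact two-sided permutation tests. Gene models for length, GC content and overlaps came from GENCODE v44lift37, and motifs were counted in 28 RefSeq promoters. The members and the further gene lists were chosen with earlier results of these data known. Within each class up to 4 members with the largest log2 fold change were described per sample, the rest by range, and up to 3 genes were named per further list. Of the list genes 4 were not found in the table.

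Same-numbered samples deviated together from their group means in all 24 pairs (r = 0.331 to 0.573), so the numbers were taken to pair the samples, and a fit with the replicate number as a block was run beside the main one. The alternatives also covered DESeq2 1.42.0, RLE and total-count scaling, other filters and fold minimums, only the groups compared, a correction for GC content and length (a spline with 5 degrees of freedom), each set of replicates alone, and each library left out in turn.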

Additional observations from a re-analysis of the deposited data

Results flagged for a closer look

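In 4 of 128 groups of 4 samples, 1 sample lay far from the other three by Dixon's criterion, which chance meets in about 1 in 20 groups. SLC16A1 stood at 198 CPM in DMSO replicate 1, against 231 to 234 in the other DMSO samples. HK2 stood at 65 CPM in DMSO replicate 2 against 44.1 to 46.4, and BNIP3 in the same library at 126 CPM against 104 to 105. PGK1 stood at 690 CPM in PB replicate 4 against 660 to 661.

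The effect of PB on VEGFA differed with and without RA. The log2 difference between the effects was 0.31 ± 0.0728 (interaction in edgeR, adjusted p = 0.0186), and with the replicate block it was 0.31 (adjusted p = 0.00216). It was under the fold minimum used for calls.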

How the results depend on the processing

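Of 1425 gene-level values under alternative settings, 1149 kept their direction and side of the threshold, 142 were no longer called, 134 became called and 0 reversed. None of the 50 tests of count ratios passed after adjustment (smallest adjusted p = 0.0595), so their alternatives say nothing about stability. Counts of genes below are given as higher and lower, without the shares of all genes called under the same settings. With no fold minimum they were 4 and 13 in PB, 5 and 12 in RA, 8 and 19 in PB+RA, 4 and 15 in PB+RA against PB and 15 lower in PB+RA against RA, and 1 gene lay above the additive sum. With a log2 fold minimum of 1 they were 1 and 1 in PB, 0 and 0 in RA, 2 and 5 in PB+RA, 0 and 0 against PB, and 1 and 0 against RA. Raising the filter to an average level of 10 CPM or more gave 1 and 3 in PB, 1 lower in RA, 3 higher in PB+RA, 1 lower against PB and 5 lower against RA. That filter left ADM, ALDOA, ALDOC, NDRG1, PDK1 and SLC16A3 untested, so their calls are missing from these counts. The GC and length correction gave 9 lower in PB, 1 and 5 in RA, 1 higher in PB+RA, and 0 and 7 against PB, and with the replicate block added it gave 3 higher and 9 lower in PB, 1 and 5 in RA, 2 higher in PB+RA, 0 and 7 against PB, and 4 and 8 against RA, where the correction alone gave 3 and 7. The replicate block alone gave 2 higher against PB and, beyond the calls of NDRG1, changed no other call. Fitting only the groups compared gave 1 lower in RA and 2 lower against PB, and scaling by total counts or testing without a filter gave 2 lower against PB each. Replicates 1 and 2 alone gave 1 lower in RA and 0 higher against PB, and replicates 3 and 4 alone gave 3 higher against PB. Apart from the genes left untested by the stricter filter, the causes of these differences were not tested. Leaving out each library in turn gave 2 to 2 higher and 4 to 7 lower in PB, 2 to 3 higher and 0 to 3 lower in RA, 4 to 5 higher and 12 to 12 lower in PB+RA, 0 to 1 higher and 1 to 5 lower against PB, 3 to 4 higher and 7 to 8 lower against RA, and 0 to 1 below the additive sum. At 1.85 CPM SLC16A3 and at 2.42 CPM NDRG1 are limited by depth, as is CA9 at 0.206 CPM.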
